A study of Mus musculus with 12 samples.

Results

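The 30 genes described here are those of cholesterol synthesis and sterol transport in the small-intestinal epithelium, taken from the 15855 genes of the deposited table by their symbols. The rule uses gene names and no measured value, but the list was drawn up with earlier results of these data known. All 30 were in the table and all 30 passed the filter on low counts, among 14462 genes tested. They fall into 8 enzymes of the mevalonate stretch of the pathway, 11 enzymes that lead from farnesyl groups to cholesterol, 5 parts of the SREBP control system and 6 genes of sterol transport and storage. The libraries came from live EpCAM+ epithelial cells sorted from the whole small intestine of specific-pathogen-free C57BL6/J mice, 24 h after surgery. The sham group (7 libraries) had the operation without occlusion of the artery, and the pMCAO group (5 libraries) had a permanent middle cerebral artery occlusion, an intraluminal filament model of ischaemic stroke. Both groups shared the ketamine and xylazine anaesthesia, and the methods give male mice unless stated otherwise.

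Cells make cholesterol from acetyl-CoA. Enzymes first build mevalonate and the isoprenoids, then join farnesyl groups into squalene, close the sterol ring and trim it to cholesterol. In enterocytes this supply meets dietary and biliary cholesterol, which NPC1L1 takes up at the brush border, SOAT2 esterifies, ABCG5 with ABCG8 returns to the lumen, and ABCA1 passes to the blood side. When sterols in the endoplasmic reticulum are scarce, SCAP escorts the SREBP transcription factors (encoded by Srebf1 and Srebf2) to the Golgi for activation, and the INSIG proteins hold SCAP back when sterols are plentiful.

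The libraries held 7418730 to 31925579 counts over all genes. Libraries 58 to 61 by the submitters' numbering (pMCAO replicate 1 and sham replicates 1 to 3) stood apart from the 8 later ones in the number of genes with a count, 13386 to 14712 against 15343 to 15766. Mitochondrially encoded genes took 46.3% to 62.02% of their counts, against 24.2% to 48.5%, ranges that overlapped. Summed CPM (counts scaled to library size) of 6 goblet cell markers was 4129 to 8114 in those 4 libraries and 20574 to 55104 in the rest. The sums of 6 enteroendocrine markers were 179 to 304 and 1170 to 2490, and those of 6 tuft cell markers 17.8 to 56.7 and 218 to 974. Between pMCAO and sham, all 6 goblet markers had a positive fold change, with a median log2 value of 0.90 and 0 at an unadjusted p under 0.05 for the group alone, and of 0.50 and 4 with the runs as a factor (the fit described below). Epcam itself stood at 883 to 2533 CPM in every library. Sums of 6 epithelial identity markers were 9812 to 12145 CPM in libraries 58 to 61 and 5159 to 8484 in the later ones. Between pMCAO and sham their median log2 fold change was -0.28 for the group alone and -0.046 with the runs. In both fits 0 of the 6 had an unadjusted p under 0.05. Sums of 8 lymphocyte markers were 28.7 to 607 CPM in sham and 55.7 to 407 in pMCAO. The 7 of them that were tested had a median log2 fold change of 0.33, with 0 at an unadjusted p under 0.05, for the group alone, and of 0.75, with 4, with the runs. Sums of 5 myeloid markers were 9.50 to 39.6 and 6.89 to 23.5. The 5 crypt markers summed to 28.2 to 182 and 23.6 to 99.6 CPM, and the 6 Paneth markers to 10.6 to 85.9 and 19.1 to 48.2. The 2 stromal and endothelial markers analysed (of 8 listed) summed to at most 13.7 CPM, and the 3 hepatocyte markers (of 6) to at most 15.3. Since 3 of 7 sham but 1 of 5 pMCAO libraries belong to this early stretch, each comparison is given for the group alone and again with 4 runs of library numbers (58 to 61, 62 to 65, 66 to 68, and 72) as a factor. Sham replicate 7 is the sole library of the fourth run, which holds no pMCAO library to compare it with in the second fit. In bulk RNA of this kind, fewer cells of a type and less RNA per cell cannot be told apart.

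Per unit of exon length, 4 of the 6 transport genes were the most abundant members, and the synthesis enzymes stood lower. In sham-operated mice Npc1l1, the brush-border cholesterol importer, averaged 503 ± 197 CPM per kilobase of exon (SD, n = 7). Abcg5 and Abcg8, whose products pair as the exporter to the lumen, averaged 73.1 ± 20.1 and 34.4 ± 14.6 on the same per-length scale. Soat2, the sterol esterifying enzyme of enterocytes, averaged 66.4 ± 24.2 CPM per kilobase. The 19 synthesis enzymes ranged from 17.5 CPM per kilobase (Hmgcs1) down to 0.483 (Lss), and the mean of Npc1l1 lay above that of every enzyme in both groups.

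**Figure D1:**
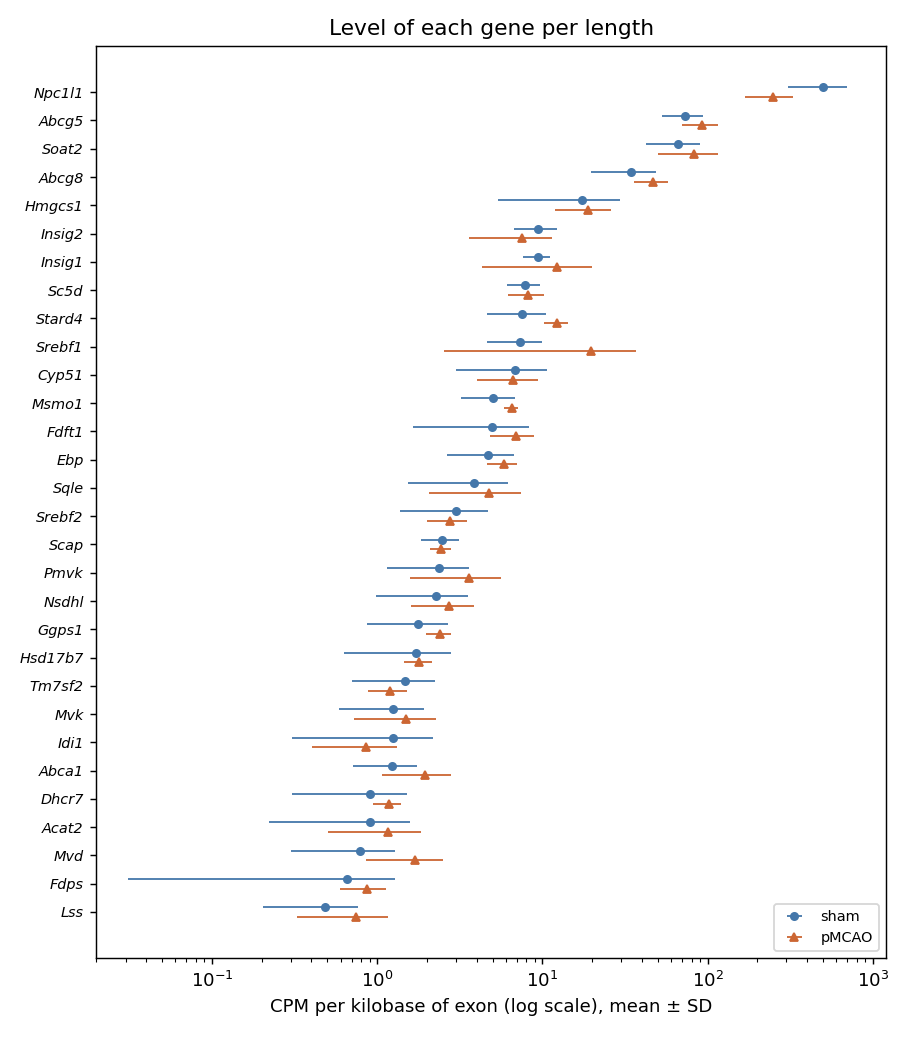
Mean level of each of the 30 genes in CPM per kilobase of exon (log scale), ordered by the sham mean; circles are the 7 sham and triangles the 5 pMCAO libraries, with bars of ± 1 SD. Npc1l1 leads at 503 in sham and 249 in pMCAO, and Srebf1 is at 19.7 ± 17.2 in pMCAO, where 1 library stands far above the other 4.

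At 24 h, none of the 30 genes was called different between pMCAO and sham when the group alone was fitted, that is, with an adjusted p at or under 0.05 and a change of 1 or more in either direction on the log2 scale (limma-voom with Benjamini-Hochberg adjustment). The same held for the whole table, where 0% of genes were called, and the smallest adjusted p among the members was 0.348. At an unadjusted p under 0.05, 4 of 30 stood out, Srebf1, Mvd and Stard4 higher and Npc1l1 lower after pMCAO, against 8.43% of all genes tested. The median log2 fold change over the members was 0.34, beside 0.06 over all genes. Of the members 24 were higher and 6 lower, where 55.2% of all genes tested were higher. With the runs as a factor the counts were 4 higher (Srebf1, Stard4, Abcg8 and Msmo1) and 1 lower (Npc1l1) at an unadjusted p under 0.05, where the background was 12.7%. One member, Npc1l1, then reached an adjusted p of at most 0.05, a mark passed by 0.477% of genes, and 0 members passed the fold threshold as well, which 0.325% of genes did. The median of the members was 0.28 with the runs, beside 0.01 over all genes. Here 21 members were higher and 9 lower, where 51.3% of all genes were higher. Without libraries 58 to 61 the median was 0.11 for the group alone and 0.17 with the runs.

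**Figure D2:**
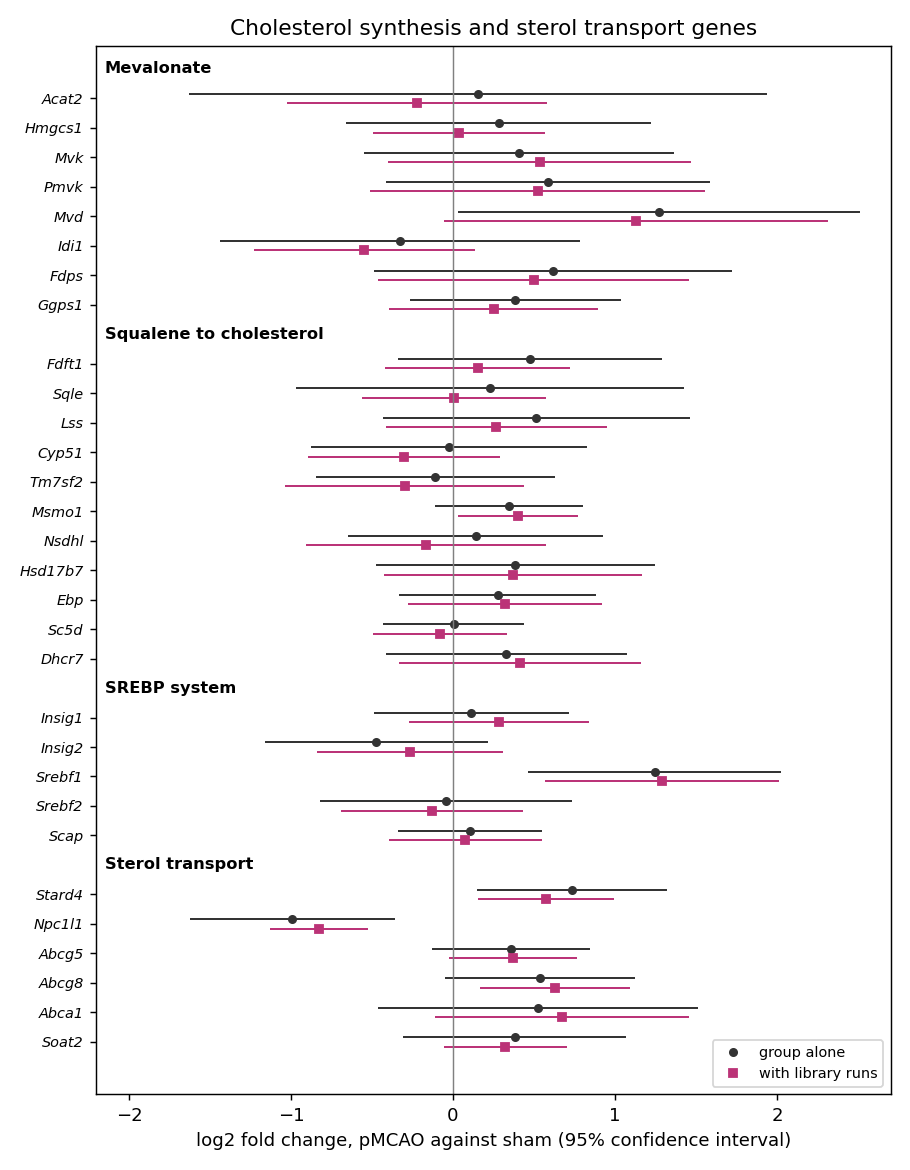
Log2 fold change of pMCAO against sham for each gene, grouped by role, with 95% confidence intervals; black circles are from the group alone and magenta squares from the fit with library runs. Most intervals cross 0; those of Npc1l1 lie below it and those of Srebf1 and Stard4 above it in both fits.

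Among the transport genes, Npc1l1 (chromosome 11, 6211013 to 6230143, minus strand, GRCm38) had the lowest p with the runs fitted. In the 5 pMCAO libraries, replicates 1 to 5, it stood at 1708, 882, 1162, 779.7 and 1027 CPM. In sham its lowest, median and highest values were 1241, 1903 and 3454 CPM. The groups overlapped over all 12 libraries, since pMCAO replicate 1 lay above sham replicates 4 and 7, at 1371 and 1241 CPM. Of the 3 runs that hold both groups, the first sets 1 pMCAO against 3 sham libraries. The second sets 2 against 2, and the third 2 pMCAO against 1 sham library. Within each of these runs, every pMCAO library lay below every sham library, with mean log2 differences of -0.87, -0.67 and -1.01. Such a separation in the same direction in all 3 runs was seen in 5.52% of genes tested. The fold change was 1.99-fold lower for the group alone (log2 fold change -0.99, SE 0.30, adjusted p = 0.350). With the runs it was 1.77-fold lower (log2 fold change -0.83, SE 0.14, adjusted p = 0.0152, 95% interval -1.13 to -0.53). Of the 12 fits with the runs that left out 1 library each, 9 kept an adjusted p of at most 0.05 for Npc1l1. It was 0.0939 without pMCAO replicate 1, 0.0504 without pMCAO replicate 4 and 0.147 without sham replicate 6, and 0.365 with libraries 58 to 61 left out, where the log2 fold change was -0.79.

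The summed CPM of 8 enterocyte markers (Fabp1, Fabp2, Alpi, Sis, Lct, Apoa4, Anpep and Rbp2) went the other way. It ranged from 15090 to 39920 with a median of 18972 in pMCAO, and from 11735 to 19806 with a median of 15851 in sham, so the groups overlapped. The upper end of 39920 was pMCAO replicate 1 alone. In the later runs the highest sum was 22870, also in a pMCAO library. Of these 8 markers 7 were higher after pMCAO, 4 of them at an unadjusted p under 0.05, with a median log2 fold change of 0.69 for the group alone and 0.40 with the runs. The 6 proximal enterocyte markers had a median log2 fold change of 0.50 for the group alone and 0.27 with the runs, and the 5 distal enterocyte markers tested (of 6) of 0.20 and 0.33. The part of these markers, and of the goblet and lymphocyte markers given above, in the Npc1l1 values was not tested.

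The start of Npc1l1 is shown with those of Abcg5 and Abcg8 because these 3 genes set import against export at the same membrane. Each run holds the 250 bases before the RefSeq start (GRCm38.p6) on the gene's own strand, at chr11:6230246-6230495 (minus), chr17:84683012-84683261 (minus) and chr17:84682871-84683120 (plus). Capitals mark CCAAT on either strand, the letters bound by NF-Y, a partner of the SREBPs.
Npc1l1: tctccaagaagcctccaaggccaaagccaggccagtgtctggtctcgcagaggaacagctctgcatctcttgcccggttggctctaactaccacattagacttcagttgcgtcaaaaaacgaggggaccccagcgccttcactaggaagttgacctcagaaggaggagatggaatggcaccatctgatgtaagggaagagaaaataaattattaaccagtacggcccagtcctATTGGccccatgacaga
Abcg5: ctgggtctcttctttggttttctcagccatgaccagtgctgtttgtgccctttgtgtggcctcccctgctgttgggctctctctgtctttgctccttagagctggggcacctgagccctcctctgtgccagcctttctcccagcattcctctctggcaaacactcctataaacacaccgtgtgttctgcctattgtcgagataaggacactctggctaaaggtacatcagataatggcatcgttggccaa
Abcg8: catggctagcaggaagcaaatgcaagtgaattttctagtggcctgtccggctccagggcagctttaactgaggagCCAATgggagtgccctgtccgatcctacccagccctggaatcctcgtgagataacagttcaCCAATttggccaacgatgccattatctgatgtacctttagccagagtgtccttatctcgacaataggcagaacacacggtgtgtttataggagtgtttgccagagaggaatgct
Npc1l1 holds 1 such match, on the other strand, 17 to 13 bases before its start. Abcg5 and Abcg8 lie head to head on chromosome 17, and their windows overlap. Abcg8 has CCAAT 175 to 171 and 114 to 110 bases before its start, and the nearer match is the one that falls on the first bases of Abcg5, past the end of the run printed for that gene. RefSeq gives Abcg8 a further start, whose 250 bases (chr17:84676052-84676301) hold no CCAAT, and the start shown lies inside the gene coordinates given for Abcg8 below.

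Abcg5 and Abcg8 stood higher after pMCAO without passing the test. Abcg8 (chromosome 17, 84676302 to 84700333) measured 212, 114, 209, 153 and 187 CPM in pMCAO replicates 1 to 5, and 74.1, 102 and 208 as the lowest, median and highest sham values. Its log2 fold change was 0.54 (adjusted p = 0.607, SE 0.27) and, with the runs, 0.63 (adjusted p = 0.220, SE 0.22). Like Npc1l1 it did not overlap between the groups in any of the 3 runs, here with the pMCAO libraries on the upper side. Abcg5 (chromosome 17, 84658234 to 84683011) measured 304, 164, 317, 222 and 249 CPM in pMCAO and 143, 185 and 264 in sham. Its log2 fold change was 0.36 (adjusted p = 0.668, SE 0.23) and, with the runs, 0.37 (adjusted p = 0.415, SE 0.18). Within runs the difference was 0.38, 0.61 and 0.00092 on the log2 scale, and in the third run the groups overlapped. The level of Abcg5 per length over that of Abcg8 was 1.84 to 2.09 in pMCAO and 1.74 to 2.72 in sham.

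Stard4, which encodes a carrier of cholesterol between membranes, measured 53.1, 82.4, 62.4, 76.7 and 67.97 CPM in pMCAO and 18.96, 43.1 and 65.5 in sham. It was higher in pMCAO in all 3 runs without overlap, by 1.00, 0.66 and 0.14 on the log2 scale. The fitted log2 fold change was 0.74 (adjusted p = 0.505, SE 0.27) and, with the runs, 0.58 (adjusted p = 0.216, SE 0.20). Soat2 measured 302, 144, 115, 155 and 203 CPM in pMCAO and 52.0, 150.0 and 220.3 in sham, a log2 fold change of 0.38 (adjusted p = 0.750, SE 0.32). Abca1, the exporter to nascent HDL, had a log2 fold change of 0.53 (adjusted p = 0.762, SE 0.46), with 6.46 to 30.6 CPM in pMCAO and 3.35 to 21.5 in sham. In both fits, 5 of the 6 transport genes had a positive fold change and Npc1l1 alone a negative one. Among all genes tested 55.2% were higher for the group alone and 51.3% with the runs. Of the 6, 1 gene, Npc1l1, passed an adjusted p of 0.05 in the fit with runs.

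**Figure D3:**
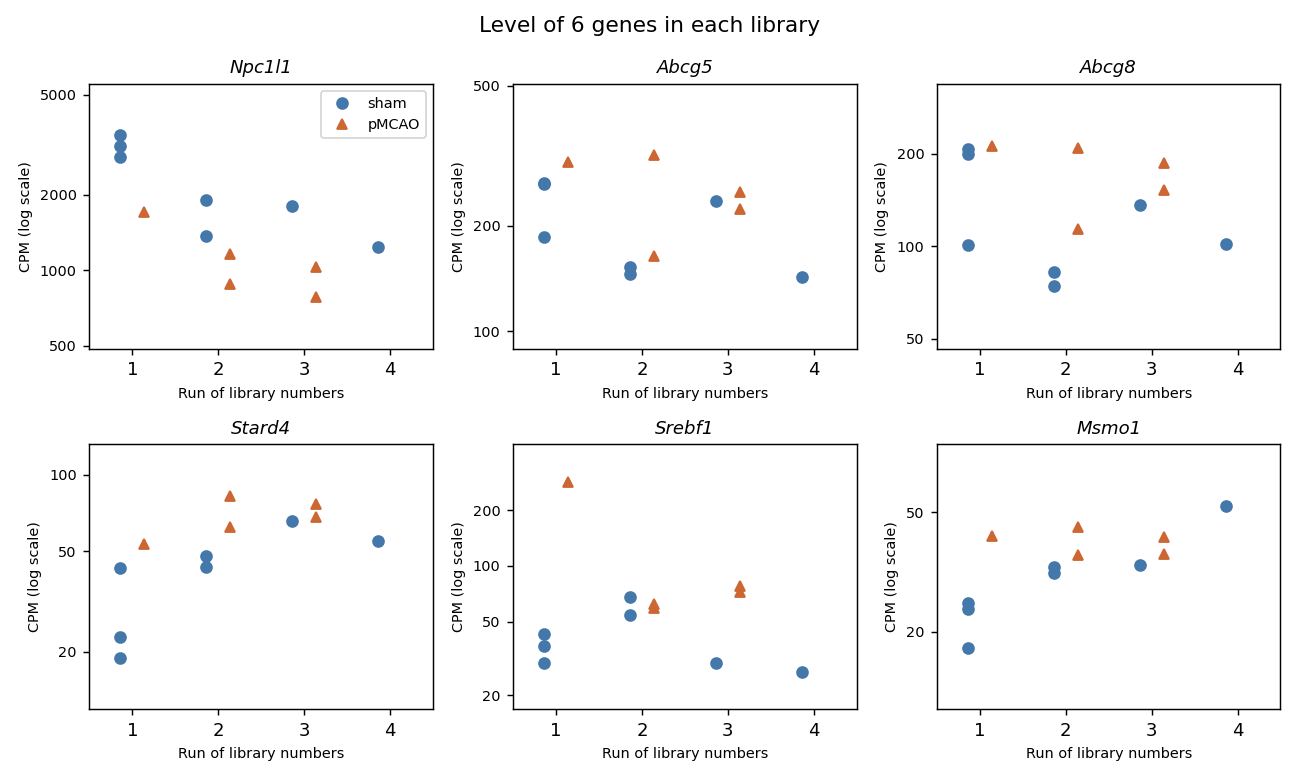
CPM (log scale) of 6 genes in each library, by run of library numbers; circles are sham and triangles pMCAO. Within each of runs 1 to 3, Npc1l1 is lower, and Abcg8, Stard4 and Msmo1 are higher, in every pMCAO library than in every sham library of that run, and Srebf1 in pMCAO replicate 1 stands at 283 CPM.

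In the SREBP system, Srebf1 (chromosome 11, 60199089 to 60222581, minus strand), which encodes the SREBP-1 isoforms best known for fatty acid synthesis, was the one member with an unadjusted p under 0.05. It measured 283, 62.01, 59.1, 77.9 and 72.3 CPM in pMCAO, and 26.9, 36.9 and 68.1 in sham. The log2 fold change was 1.25 (adjusted p = 0.348, SE 0.36) for the group alone and 1.29 (adjusted p = 0.114, SE 0.34) with the runs. That size rests on pMCAO replicate 1, without which it was 0.83 and 0.58. Within runs the difference was 2.97, -0.0029 and 1.33 on the log2 scale. Insig1, which retains SCAP in the endoplasmic reticulum, measured 80.3, 22.7, 23.5, 36.4 and 25.9 CPM in pMCAO and 19.3, 27.9 and 34.8 in sham, again with its highest value in pMCAO replicate 1. Its log2 fold change was 0.11 (adjusted p = 0.931, SE 0.28) and, with the runs, 0.29 (adjusted p = 0.689, SE 0.26). Insig2, its relative, measured 46.7, 25.1, 30.001, 17.9 and 10.9 CPM in pMCAO and 15.1, 33.7 and 47.5 in sham, a log2 fold change of -0.47 (adjusted p = 0.688, SE 0.32). Srebf2, which encodes the SREBP that drives cholesterol synthesis, and Scap had log2 fold changes of -0.04 (SE 0.36) and 0.10 (SE 0.21), with groups that overlapped.

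Among the 8 mevalonate enzymes, 7 had a positive fold change for the group alone and 6 with the runs. Over all genes tested these shares were 55.2% and 51.3%. Mvd alone passed an unadjusted p of 0.05, for the group alone. Mvd, the decarboxylase that yields isopentenyl units, measured 1.28, 4.18, 4.82, 3.60 and 1.77 CPM in pMCAO and 0, 1.87 and 2.48 in sham. At these low counts (0 to 209 per library) its log2 fold change was 1.27 (adjusted p = 0.583, SE 0.58), and 1.13 (adjusted p = 0.415, SE 0.56) with the runs. The second value was 0.55 without sham replicate 5 and 1.74 without sham replicate 6. Hmgcs1, the HMG-CoA synthase, measured 44.9, 135, 77.5, 91.9 and 87.3 CPM in pMCAO and 20.5, 58.99 and 152 in sham. Its log2 fold change was 0.28 (adjusted p = 0.879, SE 0.44) and, with the runs, 0.036 (adjusted p = 0.973, SE 0.25). Ggps1, which makes the geranylgeranyl donor, measured 10.6, 13.8, 9.22, 10.002 and 12.7 CPM in pMCAO and 1.69, 9.02 and 14.8 in sham. The log2 fold change of Ggps1 was 0.38 (adjusted p = 0.733, SE 0.30). Pmvk, the second mevalonate kinase, measured 2.91, 11.9, 4.27, 6.80 and 5.09 CPM in pMCAO and 0.483, 4.81 and 5.94 in sham. The log2 fold change of Pmvk was 0.59 (adjusted p = 0.736, SE 0.47). Acat2, Mvk, Idi1 and Fdps had log2 fold changes of 0.15, 0.41, -0.33 and 0.62, none with an unadjusted p under 0.05. About 65.6% of the longest Acat2 transcript is shared at 97% identity or more with Acat3, and 33.7% of that of Fdft1 with a processed pseudogene, so reads of both may have been split. These 2 have the largest shares among the 7 members that share at least 10% of their length with another gene in this way.

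Of the 11 enzymes from squalene onward, 9 had a positive fold change for the group alone and 7 with the runs. The shares over all genes tested were 55.2% and 51.3%. Msmo1, a C4 demethylation oxidase, was the one with an unadjusted p under 0.05, in the fit with runs. Msmo1 measured 41.8, 44.8, 35.9, 36.2 and 41.4 CPM in pMCAO and 17.6, 31.4 and 52.6 in sham. Its log2 fold change was 0.35 (adjusted p = 0.659, SE 0.21), and 0.40 (adjusted p = 0.334, SE 0.17) with the runs. Sc5d, the lathosterol desaturase, measured 55.4, 36.0, 28.8, 39.6 and 40.1 CPM in pMCAO and 30.4, 36.1 and 53.9 in sham. The log2 fold change of Sc5d was 0.0045 (adjusted p = 0.996, SE 0.20). Cyp51, the lanosterol demethylase, measured 16.7, 46.4, 29.5, 34.6 and 20.4 CPM in pMCAO and 8.45, 31.0 and 56.3 in sham. Its log2 fold change was -0.02 (adjusted p = 0.991, SE 0.40) and, with the runs, -0.30 (adjusted p = 0.694, SE 0.28). The other 8 (Fdft1, Sqle, Lss, Tm7sf2, Nsdhl, Hsd17b7, Ebp and Dhcr7) had log2 fold changes from -0.11 for Tm7sf2 to 0.51 for Lss, and their ranges overlapped between groups.

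The synthesis enzymes also varied with library number inside the sham group. The limit between libraries 58 to 61 and the later ones came from an earlier analysis of these data. Adjusted p-values across it therefore describe the difference and are no independent test of it. In a comparison among sham libraries alone (replicates 1 to 3 against 4 to 7), 18 of the 19 enzymes were lower in libraries 58 to 61, as were 55.5% of the 13498 genes tested. The median log2 difference of the enzymes was -1.13, against -0.13 over all genes tested. Between pMCAO and sham the median of the same 19 enzymes was 0.33 for the group alone and 0.25 with the runs. Of the 19, 16 and 13 were higher in these fits, beside 55.2% and 51.3% of all genes tested. At an adjusted p of at most 0.05, 5 of the 30 members were lower and 1 was higher, where the background was 7.07% in either direction and 3.71% for lower. Hmgcs1 averaged 32.5 CPM in the 3 early and 116 in the 4 later sham libraries (log2 difference -1.80, adjusted p = 0.0222), and Sqle, the squalene epoxidase, 9.26 and 30.7 (log2 difference -2.18, adjusted p = 0.0216). Cyp51 and Srebf2 averaged 15.1 and 41.6, and 11.6 and 29.2, and Stard4 averaged 28.3 and 52.8. Npc1l1 went the other way, with 3136 CPM in the early and 1579 in the later ones (log2 difference 1.02, adjusted p = 0.0222). As given above, the goblet, enteroendocrine and tuft cell marker sums in libraries 58 to 61 lay below those of every later library. The Paneth marker sums of the early and later libraries overlapped. Mitochondrial shares were higher in libraries 58 to 61 but also overlapped. The part of the marker sums or the mitochondrial shares in these sham values was not tested.

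**Figure D4:**
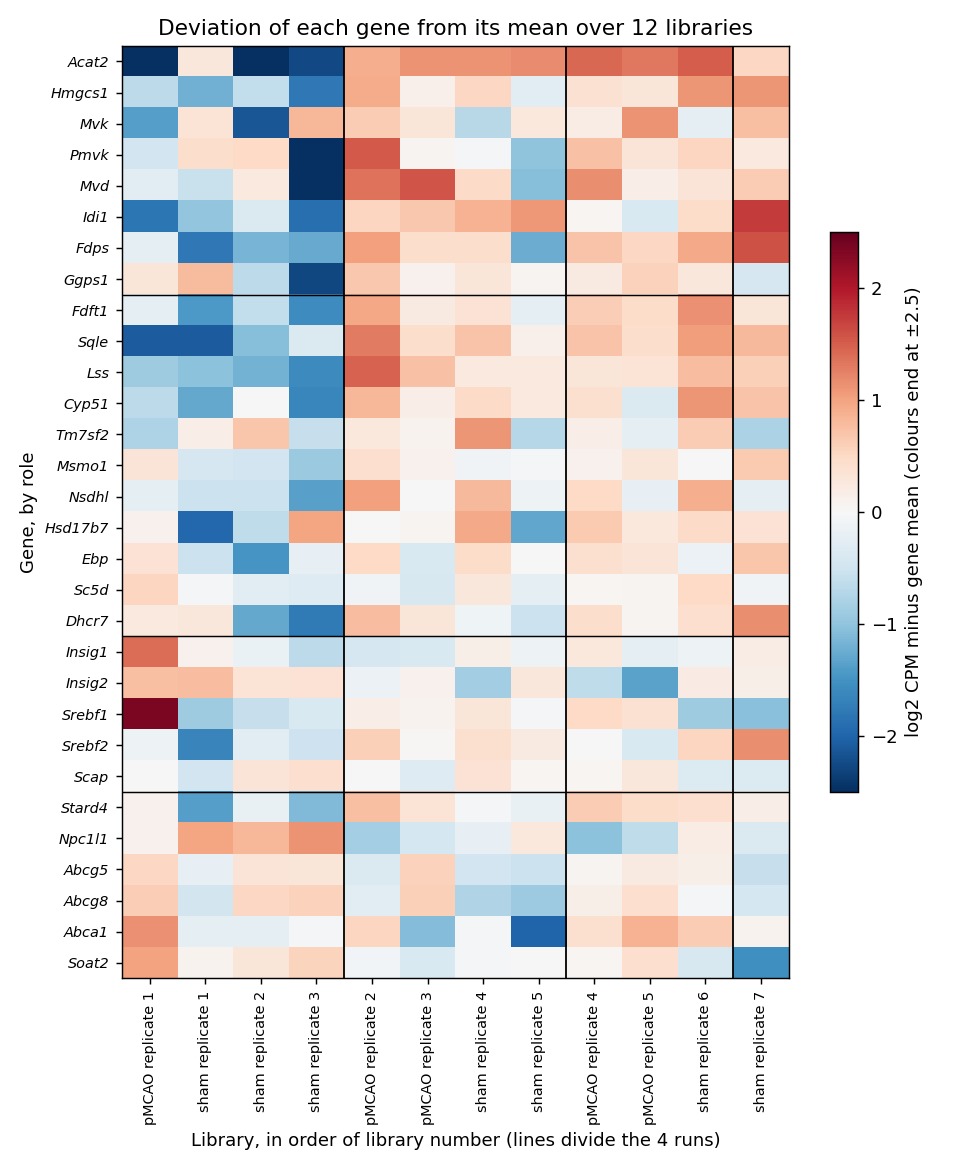
Log2 CPM of each gene minus its mean over the 12 libraries, in order of library number, with lines between the 4 runs and between the 4 roles. The synthesis enzymes are mostly below their mean in the first 4 libraries (13 to 17 of 19), as are 0 to 4 of the 6 transport genes.

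Promoter letters were compared for the members with a RefSeq window of 250 bases before to 50 after the start, which 25 of 30 had, in 34 windows. TCACNCCAC, a sterol-regulatory-element sequence, was present on either strand in 1 member, Hmgcs1, and in 1.24% of all 32851 windows. CCAAT was present in 22 of 25 members, or 67.6% of their windows against 37.4% of all windows. The E-box CACGTG was in 6 members (Hsd17b7, Sc5d, Dhcr7, Insig1, Scap and Abca1), or 20.6% of their windows against 7.15% of all. The 250 bases before the starts of Hmgcs1 (chr13:119690101-119690350, plus strand) and Msmo1 (chr8:64733579-64733828, minus strand) are shown because the first holds the sterol-regulatory match and each holds 3 CCAAT matches. Capitals mark these letters.
Hmgcs1: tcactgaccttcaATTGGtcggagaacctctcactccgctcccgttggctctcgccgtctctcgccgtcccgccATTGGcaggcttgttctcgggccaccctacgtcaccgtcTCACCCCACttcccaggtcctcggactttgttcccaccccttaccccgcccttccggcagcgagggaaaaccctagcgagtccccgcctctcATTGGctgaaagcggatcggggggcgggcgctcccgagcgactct
Msmo1: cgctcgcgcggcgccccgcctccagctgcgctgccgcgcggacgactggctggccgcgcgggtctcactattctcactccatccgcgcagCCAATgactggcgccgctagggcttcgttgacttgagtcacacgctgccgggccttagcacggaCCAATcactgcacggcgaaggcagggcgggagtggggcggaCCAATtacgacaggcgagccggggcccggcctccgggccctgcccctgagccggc
The sterol-regulatory match of Hmgcs1 lies 137 to 129 bases before its start, and the CCAAT matches of Msmo1 lie at 160 to 156, 96 to 92 and 55 to 51. A match describes letters and not a bound site.

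Further genes of sterol and lipid handling were counted by list, to be read against the 8.43% of all genes for the group alone and the 12.7% with the runs. Of 13 other genes of sterol synthesis and uptake tested, 1 was higher and 1 lower at an unadjusted p under 0.05 for the group alone, and of 23 genes of LXR action and intracellular sterol handling 0 were higher and 3 lower. Of 13 fatty acid genes under SREBP-1 1 was higher and 0 lower, and of 12 genes that use isoprenoids 1 was higher and 0 lower. With the runs the same lists gave 2 higher and 1 lower, 0 and 2, 2 and 1, and 0 and 1. Npc1, the lysosomal cholesterol exporter and a distinct gene from Npc1l1, measured 246, 102, 149, 71.9 and 76.5 CPM in pMCAO and 125, 321 and 506 in sham. Its log2 fold change was -1.35 (adjusted p = 0.338, SE 0.39), and with the runs -1.10 (adjusted p = 0.0435, SE 0.23), which passed both thresholds. Without sham replicate 6 the second value was -0.84 (adjusted p = 0.234), and among the 12 fits with the runs that left out 1 library each, 3 kept an adjusted p of at most 0.05. Gramd1c, a sterol transfer protein gene, was -0.67 (adjusted p = 0.470, SE 0.24), and Syvn1, an endoplasmic reticulum ubiquitin ligase, -0.50 (adjusted p = 0.512, SE 0.19). Mbtps1, the first protease that cleaves the SREBPs, was 0.41 (adjusted p = 0.571, SE 0.18), and Fads2, a fatty acid desaturase, was 2.08 (adjusted p = 0.504, SE 0.77) at 0 to 119 counts.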

How the data were processed

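RNA was measured in sorted EpCAM+ cells of 7 sham and 5 pMCAO mice, with groups taken from the labels. The study describes a further pMCAO sample, which was not analysed here. Per the methods, libraries were made with the Trio RNA-seq kit and sequenced in paired-end mode, and the submitters' processing notes name STAR, featureCounts, limma and GRCm38. Strand setting and annotation release are not given in the sources used here. The authors deposited raw gene counts and CPM, and 190260 of 190260 deposited CPM values matched the counts within 0.001. Columns of the authors' own comparison (log2 fold changes, average expression, p-values and FDR) were not used.

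Counts were filtered with filterByExpr (minimum count 10), scaled by TMM and fitted with limma-voom over all 12 libraries, with the group alone as the main design. The CPM levels given here carry the TMM scaling, unlike the deposited CPM. The methods state a correction for day of tissue collection, which the labels do not give. Runs of library numbers were fitted as a factor beside the main design. The numbers stand in the sample titles, but the limits of the runs came from an earlier analysis of these data and not from the labels. A gene was called where the adjusted p was 0.05 or less and the fitted change was 1 or more in either direction on the log2 scale. The code was tested on simulated data. The 30 members, the other gene lists, the markers and the tests were chosen with earlier results of these data known. Full values are given for members with an unadjusted p under 0.05 in either fit and for the 3 of highest mean CPM in each role, and other pathway genes are named where both fits gave an unadjusted p under 0.05.

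Library totals of 7418730 to 31925579 counts set a floor of 0.0940 to 0.404 CPM for 3 counts before TMM scaling, which covers counting error only. On the scaled levels given here the floor is higher where the TMM factor is low. There, 3 counts stood at 0.724 CPM (Idi1, sham replicate 3) and 0.622 CPM (Mvk, sham replicate 2). Labels mark separate samples, and the p-values measure the spread between them. No pair of libraries of a group was a duplicate (smallest chi-square per degree of freedom 20.1). Exon lengths and positions came from GENCODE vM21, and transcripts were compared by BLAST. Of the members, 10 overlap exons of a gene on the opposite strand, over at most 18.3% of exon length, and without strand the reads in those stretches cannot be assigned to either gene. A gene on the same strand overlaps exons of 3 members. For Fdps this covers 26.7% of exon length (Gm43738) and for Tm7sf2 12.1% (Vps51), which a strand setting would not resolve. Promoter windows came from RefSeq (GRCm38.p6). Versions were R 4.3.3, edgeR 4.0.16, limma 3.58.1 and DESeq2 1.42.0. Alternatives were edgeR, DESeq2, other scaling, filters, weights and covariates, and leaving out libraries.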

Additional observations from a re-analysis of the deposited data

Results flagged for a closer look

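Of 70 groups of values tested for a library far from the others by Dixon's criterion, 8 held one, where chance gives about 1 in 20, or 3.5. Values are log2 CPM. In pMCAO replicate 1, Srebf1 stood at 8.15 (the other 4 pMCAO libraries 6.08 ± 0.19, SD), Acat2 at -2.42 (1.91 ± 0.23) and Sqle at 2.16 (4.96 ± 0.40). Ebp stood at 3.12 in pMCAO replicate 3 (3.89 ± 0.08). Among sham libraries, Mvd stood at -3.30 in replicate 3, where no count was found (the other 6 at 0.74 ± 0.67), and Insig1 at 4.28 in the same library (4.94 ± 0.16). Insig2 stood at 3.92 in sham replicate 4 (5.15 ± 0.22) and Abca1 at 1.79 in sham replicate 5 (3.82 ± 0.32). Of these libraries, pMCAO replicate 1 and sham replicate 3 belong to libraries 58 to 61.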

How the results depend on the processing

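The members called stayed at 0 under edgeR, DESeq2, RLE scaling, no filter, the runs, quality weights, leaving mitochondrial genes out and leaving libraries 58 to 61 out. With library number as a covariate 1 was called (Npc1l1), and 2 had an adjusted p of at most 0.05, with 156 genes called in the whole table. The runs gave 1 such member and 47 genes called, edgeR with the runs 21, quality weights 18 and DESeq2 68, where 2 members had an unadjusted p under 0.05 and Srebf1 was left without a p. Replicate numbers did not pair the samples: deviations of same-numbered samples correlated at 0.40, -0.24, -0.16, 0.16 and 0.082, and 2 of 5 pMCAO samples correlated best with the sham sample of their own number. The fit with the replicate block gave 1 member called, 2 at an adjusted p of at most 0.05, 8 at an unadjusted p under 0.05 and 243 genes called, with sign changes for Cyp51 (0.25), Srebf2 (0.18) and Scap (-0.066). The median over the members stayed above 0 in every alternative run.

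Leaving out 1 library at a time, over fits with and without the runs, gave 0 to 1 members called (Srebf1 without sham replicate 4, with the runs), 0 to 2 at an adjusted p of at most 0.05, 3 to 10 at an unadjusted p under 0.05 and 0 to 86 genes called. The median ran from 0.083 to 0.49.

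Sign changes of log2 fold change came near 0 for the most part, and their cause was not tested. They were Scap with edgeR (-0.015) and DESeq2 (-0.027), Sc5d with RLE scaling (-0.0078) and without mitochondrial genes (-0.00058), and Acat2 (-0.22), Nsdhl (-0.17) and Sc5d (-0.081) with the runs. Library number turned Cyp51 (0.079), Sc5d (-0.032) and Srebf2 (0.029), and quality weights Cyp51 (0.084), Sc5d (-0.050) and Insig1 (-0.011). edgeR with the runs turned Acat2 (-0.62), Sqle (-0.19) and Scap (-0.047). Without libraries 58 to 61 the turned genes were Acat2 (-0.055), Hmgcs1 (-0.17), Nsdhl (-0.065), Sc5d (-0.23) and Insig1 (-0.23). With the runs as well, a combination chosen after seeing the data, these were -0.14, -0.051, -0.23, -0.31 and -0.15. When 1 library was left out, 14 members changed sign in at least 1 fit, with ranges of Acat2 -0.28 to 0.69, Hmgcs1 -0.25 to 0.49, Fdft1 -0.12 to 0.86, Sqle -0.27 to 0.66, Lss -0.00026 to 0.84, Cyp51 -0.53 to 0.23, Tm7sf2 -0.83 to 0.15, Nsdhl -0.53 to 0.51, Hsd17b7 -0.087 to 0.76, Sc5d -0.32 to 0.13, Insig1 -0.18 to 0.43, Insig2 -0.64 to 0.16, Srebf2 -0.35 to 0.26 and Scap -0.19 to 0.20. Npc1l1, Srebf1, Stard4, Abcg8, Msmo1 and Mvd kept their sign in every alternative run. So did Mvk, Pmvk, Idi1, Fdps, Ggps1, Ebp, Dhcr7, Abcg5, Abca1 and Soat2, which had no unadjusted p under 0.05 in either main fit. The counts at an adjusted p of at most 0.05, those of the whole table and the comparison of early with later sham libraries were added after seeing the data. With 1 mismatch allowed, TCACNCCAC was found in 10 members (29.4% of their windows, 24.2% of all windows), and on the gene strand alone CCAAT in 11 (32.4% and 21.1%). Mvd, Acat2 and Fads2 had libraries at 0 counts.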
